A study of Mus musculus with 16 samples.

Results

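Both groups of tumors carried the same change in mitochondrial DNA, m.12436G>A, at different heteroplasmy, the share of a cell's mitochondrial genomes that hold the variant. The 3 tumors labelled 80% were set against the 3 labelled 60%, out of 16 mouse tumors profiled by droplet single-cell RNA sequencing. The 6 tumors were chosen by their labels and held 64777 of the 163343 deposited cells, 31562 at 80% and 33215 at 60%. All were fragments of subcutaneous grafts of B78, an amelanotic mouse melanoma line, in male C57/BL6 mice, for which the labels give an age of 8 to 11 weeks. The edit was made in the B78 cells with a mitochondrial base editor, and the labels do not say how many edited populations stand behind a dose, so p-values measure the spread between tumors. In the deposited table the tumors at 60% stood in the second of 3 batches beside 3 wild-type tumors (4, 5 and 7), and those at 80% in the third beside a single one, wild-type tumor 6. The doses shared no batch, so that dose and batch cannot be told apart when the doses are compared directly, and wild-type tumors of the batches are given beside the main results.

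Complex I of the respiratory chain oxidizes NADH and pumps protons across the inner mitochondrial membrane, and mt-Nd5 encodes one of its membrane subunits. A premature stop in mt-Nd5 truncates that subunit, and cells that hold both kinds of genome can keep part of their complex I. In these tumors the edit was in the grafted cancer cells, while immune cells, fibroblasts and vessels came from the host. On GRCm39, mt-Nd5 lies on the plus strand of chromosome M from 11742 to 13565, and position 12436 is base 2 of codon 232. The edit turns TGA, which mitochondria read as tryptophan, into the stop TAA (W232*), after 231 of 607 codons. The 41 bases of chrM:12416-12456 are shown because the same single change underlies both doses, with the edited base, position 21 of the window, in capitals.
reference: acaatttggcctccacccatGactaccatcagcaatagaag
edited: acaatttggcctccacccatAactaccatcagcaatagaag

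The m.12436 80% tumors held 10362 to 10629 cells and the m.12436 60% tumors 10478 to 12074. Median unique molecular identifiers (UMIs, counts of captured RNA molecules) per cell were 3896.5 to 6058 at 80% and 3130.5 to 4890 at 60%. Wild-type tumor 6 held 7892 cells and the second-batch wild-type tumors 6371 to 11136, and any 2 of these 10 libraries shared 11 to 46 cell barcodes. Each cell carried 1 of 15 class names and 1 of 39 cluster numbers given by the authors, and each cluster belonged to a single class. The table holds no gene expression, so the names were not checked against marker genes. Of cancer cells, 99.2% to 99.9% were called aneuploid at 80% and 96.7% to 98.8% at 60%. Their median epithelial score, an average over cytokeratins and related genes, was 5.45 to 7.12 at 80% and 4.63 to 5.74 at 60%, against 0 in each tumor for the 8 immune classes that had enough cells to compare. The paper used aneuploidy and a high epithelial score to assign malignant cells, so these values describe the class and cannot check its name. Outside the cancer class, fibroblast cluster 15 also scored above 0, with a median of 4.09 over the tumors of both batches.

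Cancer cells made up more of the m.12436 80% tumors than of the m.12436 60% tumors, and natural killer (NK) cells, T cells, CD4 T cells, dendritic cells (DC), B cells and mast cells made up less. Thus 7 of 15 classes (46.7%) passed between the doses, 1 higher and 6 lower at 80%, when cell numbers per tumor were fitted with edgeR's quasi-likelihood test and an adjusted p under 0.05 was required. In 10 of 15 classes (66.7%) all 3 tumors of a dose lay beyond the 3 of the other, although an exact permutation test of 3 against 3 tumors cannot go below p = 0.10. Each dose was next set against wild type of its own batch, and the effects were compared as a difference of differences. In that test 0 of 15 classes (0%) passed by edgeR and 1 had an unadjusted p under 0.05, with the same counts by DESeq2. Against its own wild type, neither dose had a class past the threshold by edgeR (0 of 15, 0%, each), with 2 unadjusted p under 0.05 at 80% and 1 at 60%, or by DESeq2 (0 each), with 1 and 2.

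Cancer cells were 48.5%, 46.4% and 49.5% of the m.12436 80% tumors and 30.2%, 26.2% and 24.1% of the m.12436 60% tumors. Wild-type tumors held 27.2% in the third batch and 35.7%, 18.9% and 33.0% in the second, so that all 3 tumors at 80% lay above every other tumor of these batches. The fold between doses was 1.79 (log2 0.84, SE 0.29, edgeR adjusted p = 0.0243). As a difference of differences the log2 value was 0.95 (SE 0.50, edgeR adjusted p = 0.401). The call between doses was lost without m.12436 60% tumor 2 or 3 and without m.12436 80% tumor 1 or 3 (edgeR adjusted p from 0.0555 to 0.0884). Shares sum to the whole, so the calls also depend on the scaling. With TMM scaling or DESeq2 size factors, which set a tumor's typical class as the level, the median log2 difference over the 15 classes shifted by 0.82 and 1.03. Each then called 5 classes, 2 higher (cancer cells and macrophages) and 3 lower (NK cells, T cells and CD4 T cells).

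NK cells, which kill tumor cells without prior sensitization, were 0.640%, 1.12% and 0.795% of cells at 80% and 4.24%, 3.68% and 4.08% at 60%. Wild type lay between the doses, at 1.48% in the third batch and 2.04%, 3.18% and 2.24% in the second. The m.12436 80% tumors were thus below, and the m.12436 60% tumors above, the wild type of their batch. The difference between doses (log2 -2.23, SE 0.48, edgeR adjusted p = 0.00287) passed, and the difference of differences (log2 -1.48, SE 0.77, edgeR adjusted p = 0.401) did not.

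A class named T cells, with no subset given, was 0.339%, 0.521% and 0.501% of cells at 80% and 3.26%, 3.05% and 2.40% at 60%. Its wild type held 0.798% in the third batch and 1.41%, 2.77% and 1.38% in the second, so the wild types of the batches also stood apart. The difference between doses was -2.68 on the log2 scale (SE 0.59, edgeR adjusted p = 0.00287), and the difference of differences -1.46 (SE 0.94, edgeR adjusted p = 0.428).

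CD4 T cells, which include helper and regulatory cells, were 0.452%, 0.724% and 0.681% of cells at 80% and 2.45%, 2.20% and 2.78% at 60%. Here the wild type of the third batch, at 1.67%, lay within the range of the second, at 1.65%, 2.18% and 1.46%, and all m.12436 80% tumors lay below all of them. The log2 difference between doses was -2.00 (SE 0.52, edgeR adjusted p = 0.00771). Of the 15 classes this one had the smallest p in the difference of differences (log2 -1.92, SE 0.84), 0.0367 before and 0.401 after adjustment by edgeR. Among non-malignant cells alone, NK cells, T cells and CD4 T cells were the 3 classes that passed, and these 3 passed in each of 18 alternative settings (edgeR or DESeq2 adjusted p at most 0.0355).

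CD8 T cells, the cytotoxic subset, were 0.574%, 1.19% and 1.12% at 80% and 1.24%, 1.20% and 1.97% at 60%. The ranges came close without overlapping, wild type spanned 0.682% to 2.33%, and the class did not pass (log2 -0.62, SE 0.52, edgeR adjusted p = 0.338).

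Dendritic cells, which carry antigen to lymphocytes, were 1.54%, 2.50% and 2.01% at 80% and 3.60%, 3.49% and 4.64% at 60%. Wild type was 2.55% in the third batch and 2.68% to 2.92% in the second. The difference passed (log2 -0.95, SE 0.35, edgeR adjusted p = 0.0334), but among non-malignant cells it was -0.46 (edgeR adjusted p = 0.191) and with DESeq2 size factors 0.08 (adjusted p = 0.724). B cells, the source of antibodies, were at most 0.212% at 80% and at least 0.373% at 60% (log2 -1.75, SE 0.58, edgeR adjusted p = 0.0243). Mast cells, granular cells of the tissues, were at most 0.0483% and at least 0.0954% (log2 -2.26, SE 0.72, edgeR adjusted p = 0.0237), and neither class passed among non-malignant cells, with TMM scaling or with DESeq2. The shares at 80% rested on 17, 22 and 5 B cells and on 3, 5 and 5 mast cells. Wild type held 0.329% B cells in the third batch and 0.644%, 0.628% and 0.700% in the second, so that each dose lay below all wild type of its batch (log2 difference of differences -0.76, SE 0.96, edgeR adjusted p = 0.822). It held 0.038% mast cells (3 cells) in the third batch, inside the range of the tumors at 80%, and 0.235%, 0.0819% and 0.117% in the second, beside those at 60%.

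**Figure D1:**
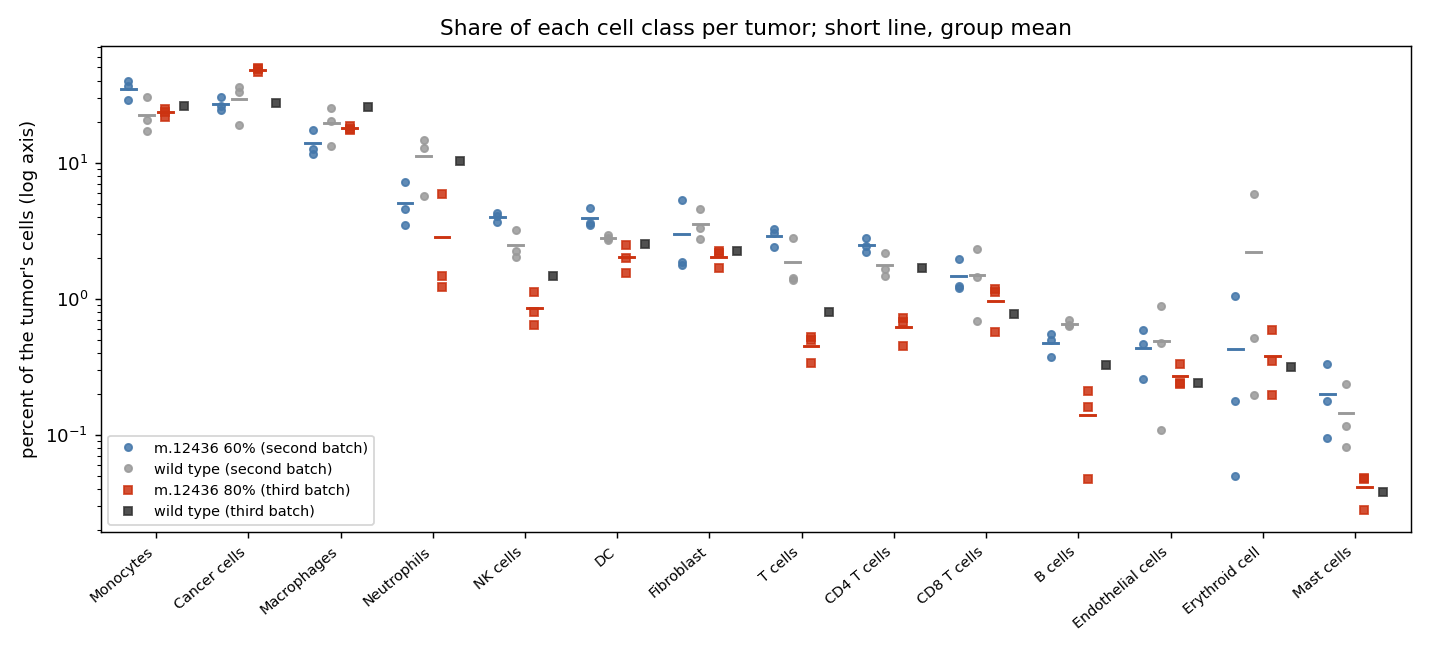
Percent of each tumor's cells (log axis) in 14 classes, with a point per tumor and a short line at the mean of each group of 3; basophils are left out. NK cells, T cells and CD4 T cells of the 80% tumors lie below those of all 60% tumors, and cancer cells of the 80% tumors lie above all others.

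Phagocytes, which engulf debris and microbes, did not pass as shares of all cells. Monocytes were 21.8% to 24.9% of cells at 80% and 28.7% to 39.8% at 60%, without overlap (log2 -0.58, SE 0.29, edgeR adjusted p = 0.112). Macrophages were 17.5% to 18.7% at 80% and 11.6% to 17.3% at 60% (log2 0.37, SE 0.27, edgeR adjusted p = 0.322). With TMM scaling they were called higher at 80% (log2 1.25, edgeR adjusted p = 0.0145), and wild type reached 25.8% in the third batch and 25.4% in the second. Neutrophils were 5.85%, 1.23% and 1.48% at 80% and 3.45%, 4.58% and 7.15% at 60%. Wild type held 10.3% in the third batch, above all 3 tumors at 80%, and 5.65%, 14.7% and 12.9% in the second, which overlapped the tumors at 60%. The doses overlapped as well (edgeR adjusted p = 0.322). Against wild-type tumor 6 the log2 fold at 80% was -1.85 (SE 0.83), which did not pass after adjustment. Without m.12436 80% tumor 1, neutrophils were called lower by edgeR between the doses and against that single wild-type tumor. They were also called lower between the doses with the replicate block. Fibroblasts, endothelial cells, erythroid cells and basophils overlapped between the doses as well (edgeR adjusted p from 0.338 to 0.897).

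Among the clusters that passed, those of cancer cells and macrophages were higher at 80% and those of lymphoid cells, DC and mast cells lower. Of 39 clusters, 11 (28.2%) passed between the doses by edgeR, 5 higher and 6 lower at 80%, and 24 (61.5%) did not overlap. The higher ones were cancer clusters 9, 27 and 14 and macrophage clusters 18 and 25. The lower ones were NK cluster 17, T cell cluster 21, CD4 T cell cluster 20, B cell cluster 34 and mast cell cluster 37, each the whole of its class, and DC cluster 29. Macrophage clusters 4 and 22 and cancer cluster 12 were also lower at 80% without overlap, but did not pass. Cluster 22 was 1.16%, 0.801% and 1.01% of cells at 80% and 1.41%, 1.95% and 1.89% at 60% (edgeR adjusted p = 0.299). Within macrophages its means were 5.56% and 12.8% (edgeR adjusted p = 0.136). Cluster 29 was 0.216%, 0.434% and 0.236% of cells at 80% and 0.697%, 0.754% and 1.15% at 60% (log2 -1.55, SE 0.47, edgeR adjusted p = 0.0256), with 0.482% in the third-batch wild type and 0.722%, 0.691% and 0.440% in the second. In the difference of differences, 0 of 39 clusters (0%) passed by edgeR with 3 unadjusted p under 0.05, and 0 passed by DESeq2 with 4.

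Cancer cluster 9 was 9.29%, 4.68% and 8.95% of all cells at 80% and 0.534%, 1.05% and 1.43% at 60%, with 4.07% in the third-batch wild type and 2.13%, 1.77% and 5.56% in the second. The wild types of both batches lay mostly between the doses. The fold between doses was 7.58 (log2 2.92, SE 0.64, edgeR adjusted p = 0.00413), and the difference of differences was 2.56 on the log2 scale (SE 1.12, unadjusted p = 0.0369, edgeR adjusted p = 0.510). Its cells had a median of 0.76% mitochondrial UMIs, against 0.68% to 1.11% over the 11 cancer clusters, and 5.64% of them were called as being in G2M, the phase before and during division. Their median doublet score, 0.00854, was the highest of those 11 clusters. Such traits may have entered the clustering and are given as description.

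Cancer cluster 27 was 1.64%, 1.01% and 1.43% of cells at 80% and 0.0573%, 0.0994% and 0.272% at 60% (log2 3.24, SE 0.88, edgeR adjusted p = 0.0152), and its difference of differences was 3.15 (SE 1.55, edgeR adjusted p = 0.510). Wild type held 0.482% in the third batch and 0.361%, 0.118% and 0.871% in the second. Cancer cluster 14 was 5.88%, 4.56% and 5.36% at 80% and 0.563%, 1.30% and 1.94% at 60% (log2 2.05, SE 0.72, edgeR adjusted p = 0.0403), with 1.56% in the third-batch wild type and 2.31%, 0.646% and 2.69% in the second. The call of cluster 27 was lost without m.12436 60% tumor 1 or 2 (edgeR adjusted p = 0.0648 and 0.0633). That of cluster 14 was lost without either of these, any one m.12436 80% tumor or wild-type tumor 4 (edgeR adjusted p from 0.0508 to 0.178). All cells of both clusters were called S, the phase of DNA copying, or G2M. Clusters 11 and 16, with 89.2% and 99.5% so called, did not overlap between the doses and had edgeR adjusted p = 0.0586 and 0.0695. Added together after their values were seen, and so without a test, these 4 clusters held 37.5%, 28.7% and 31.9% of cancer cells at 80% and 11.2%, 18.2% and 28.3% at 60%. Wild type held 23.7% in the third batch and 26.4%, 17.3% and 32.1% in the second, which overlaps both doses.

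**Figure D2:**
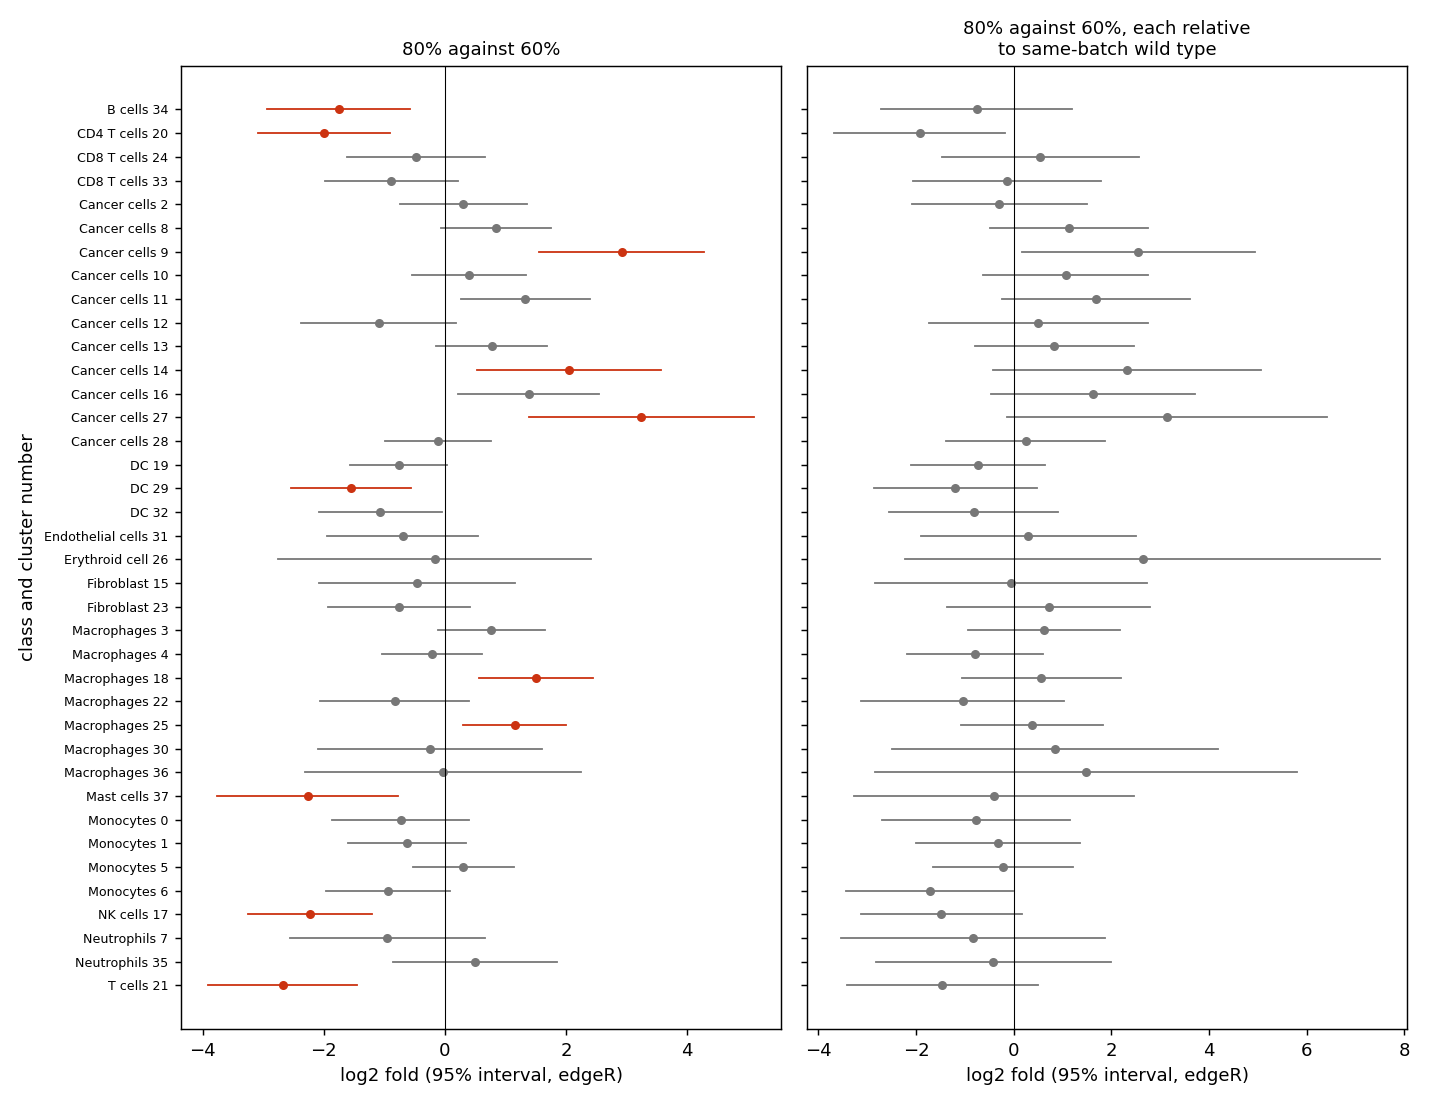
Log2 fold of each of 38 clusters with its 95% interval from edgeR, for 80% against 60% (left) and for the difference of differences from same-batch wild type (right); red marks an adjusted p under 0.05. On the left 11 clusters are red and on the right 0.

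Monocyte cluster 6 was 5.28%, 4.72% and 5.87% of cells at 80% and 9.77%, 11.0% and 9.49% at 60%. The third-batch wild type held 4.98%, beside the tumors at 80%, whereas the second-batch wild type held 3.59%, 2.47% and 2.60%, far below those at 60%. Its difference of differences was -1.72 (SE 0.80, unadjusted p = 0.0480, edgeR adjusted p = 0.510). Within batches, cluster 6 and cancer cluster 28 were the 2 of 39 clusters (5.13%) that passed by edgeR between m.12436 60% and its wild type, both higher, with log2 folds of 1.81 (SE 0.49, adjusted p = 0.0412) and 2.27 (SE 0.44, adjusted p = 0.00391). Cluster 6 lost that call without any one m.12436 60% tumor or second-batch wild-type tumor. Between m.12436 80% and its wild type 0 of 39 passed by edgeR, with 3 unadjusted p under 0.05, and 0 by DESeq2 with 3.

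Cluster 28, singled out after its values were seen, was 0.659%, 0.917% and 0.842% of cells at 80% and 0.544%, 1.28% and 0.788% at 60%. The wild type of either batch was lower than all 6, at 0.139% in the third and 0.126%, 0.191% and 0.216% in the second. Against its own wild type the log2 fold at 80% was 2.52 (SE 0.72, edgeR adjusted p = 0.109). The doses overlapped among all cells, with a fold between them of 0.926 (95% interval 0.504 to 1.70) that allows differences in either direction. Within cancer cells the cluster's means were 1.68% at 80% and 3.31% at 60%, and the tumors overlapped. The fold between doses was then 0.507 (95% interval 0.267 to 0.965), which did not pass (edgeR adjusted p = 0.138). The difference of differences within cancer cells was -0.60 on the log2 scale (SE 0.80, edgeR adjusted p = 0.811).

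Within the cancer class, and so apart from the class's size, cluster 9 took 19.1%, 10.1% and 18.1% of cancer cells at 80% and 1.77%, 4.01% and 5.94% at 60%. Its wild type took 14.95% in the third batch, inside the range of the tumors at 80%, and 5.98%, 9.37% and 16.8% in the second. The log2 fold was 2.02 (SE 0.51, edgeR adjusted p = 0.0179), a call lost without m.12436 60% tumor 1 or 2 or m.12436 80% tumor 1 or 3 (edgeR adjusted p from 0.0626 to 0.0829). The difference of differences was 1.54 (SE 0.89, edgeR adjusted p = 0.800). Cluster 12 lay the other way, at 4.91%, 5.60% and 4.72% of cancer cells at 80% and 30.1%, 10.0% and 16.2% at 60%, but wild-type tumor 5 held 28.8% and the cluster did not pass (edgeR adjusted p = 0.136). The 11 cancer clusters spanned log2 folds from -1.89 in cluster 12 to 2.33 in cluster 27, and cluster 9 alone passed within the class between the doses. Between m.12436 60% and its wild type, cluster 28 was the 1 of 31 clusters (3.23%) that passed within its class by edgeR (log2 2.30, SE 0.46, adjusted p = 0.00791), and between m.12436 80% and its wild type 0 of 31 (0%) passed by edgeR with 1 unadjusted p under 0.05, and 0 by DESeq2 with 2.

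**Figure D3:**
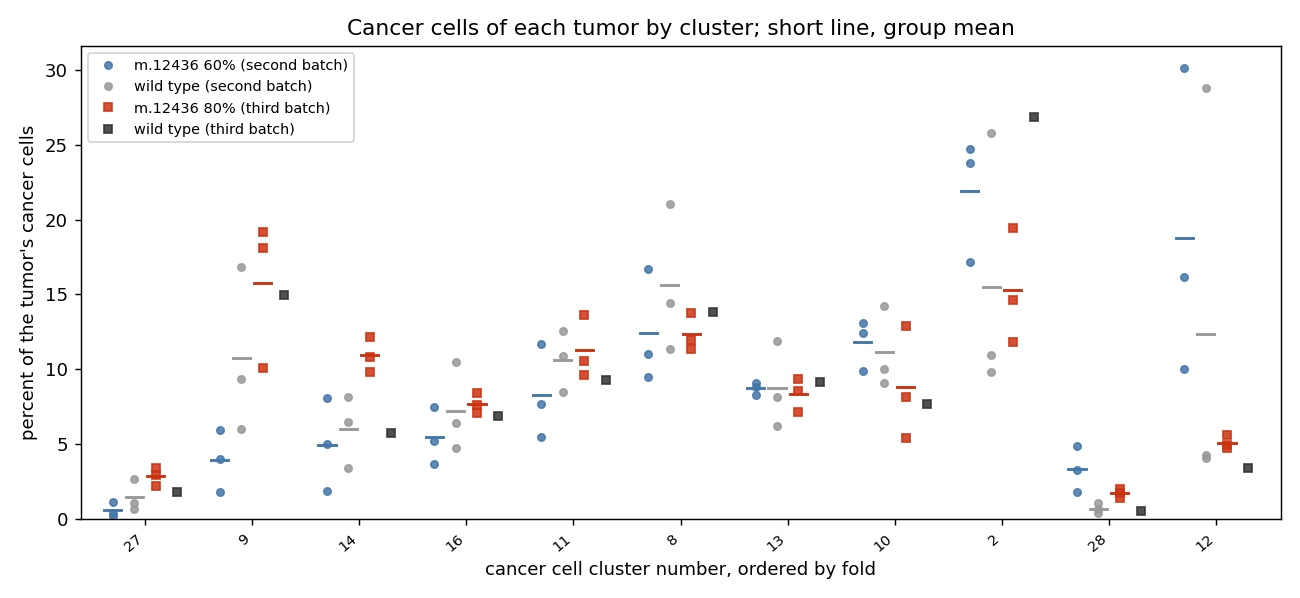
Percent of each tumor's cancer cells in each of 11 clusters, with a point per tumor and a short line at the mean of each group of 3. In cluster 9 the 80% tumors lie from 10.1% to 19.1% and the 60% tumors at or below 5.94%, while wild type reaches 16.8%.

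Over all classes with several clusters, 3 of 31 clusters (9.68%) passed within their class by edgeR, all higher at 80%, and 13 (41.9%) did not overlap. The other 2 were macrophage clusters 18 and 25, whose cells were nearly all called S or G2M and had median doublet scores (an estimate of how much a droplet resembles a mixture of cells) of 0.0230 and 0.0156. The part of such mixtures in their shares was not tested. Cluster 18, in which all cells were called S or G2M, was 16.04%, 19.4% and 18.5% of macrophages at 80% and 4.61%, 9.16% and 9.97% at 60%. Its third-batch wild type, at 12.8%, lay between the doses and above the 9.28%, 8.18% and 8.75% of the second. Cluster 18 had a log2 fold of 1.18 (SE 0.24, edgeR adjusted p = 0.00806) within macrophages and also passed among all cells, with a fold of 2.82 (edgeR adjusted p = 0.0248). Among all cells wild-type tumor 6 held 3.31%, inside the 2.81% to 3.62% of the tumors at 80%. The all-cell call was lost without m.12436 60% tumor 1 or 2 or m.12436 80% tumor 2 or 3 (edgeR adjusted p from 0.0627 to 0.0883).

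Cluster 25, with 97.6% of cells called G2M, was 4.61%, 5.33% and 6.44% of macrophages at 80% and 3.37%, 2.49% and 3.52% at 60%, with 4.86% in the third-batch wild type, inside the range of the tumors at 80%, and 3.71%, 4.16% and 3.49% in the second. Its log2 fold was 0.80 (SE 0.18, edgeR adjusted p = 0.0108) within macrophages and 1.15 (SE 0.40, edgeR adjusted p = 0.0403) among all cells. Among all cells wild-type tumor 6 held 1.25%, above the 0.809% to 1.13% of the tumors at 80%. The all-cell call was lost without m.12436 60% tumor 1 or 2, without any one m.12436 80% tumor and with the replicate block (edgeR adjusted p from 0.0624 to 0.144). The call within macrophages was lost without m.12436 60% tumor 2 or m.12436 80% tumor 3, in the m.12436 tumors alone and with the replicate block (edgeR adjusted p from 0.0508 to 0.0626). Neither macrophage cluster passed the difference of differences, with log2 values of 0.63 (SE 0.41) and 0.44 (SE 0.31, edgeR adjusted p = 0.800 for both). In that test 0 of 31 (0%) passed by edgeR with 2 unadjusted p under 0.05, cancer cluster 2 and macrophage cluster 4, and 0 by DESeq2 with 1.

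Mitochondrial RNA was a smaller, and RNA of ribosomal genes a larger, part of the UMIs in cells of the m.12436 80% tumors, in cancer cells and in most host classes. For these values, 12 deposited measures were summarized per tumor as the median over cells, or as a share of cells, in the 11 classes with at least 10 cells in each of the 10 tumors. The doses did not overlap in 64 of 132 comparisons (48.5%). Mitochondrial UMIs were lower at 80% without overlap in 8 of 11 classes and ribosomal UMIs higher in 9 of 11. In the difference of differences, 13 of 132 (9.85%) had an exact permutation p under 0.05 and 0 passed after adjustment (smallest adjusted p = 0.330). That test permutes genotype within each batch, so it asks whether genotype had no effect in either batch, and 0.0125 is the smallest p its 80 arrangements can give.

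In cancer cells, the class that carries the edit, the mitochondrial share was 0.881%, 0.910% and 0.899% at 80% and 1.05%, 1.06% and 1.101% at 60%. Wild type held 0.929% in the third batch and 0.906%, 0.982% and 0.890% in the second. The m.12436 60% tumors thus lay above all 4 wild-type tumors, and the m.12436 80% tumors close to them. The difference of differences was -0.18 percentage points (exact permutation p = 0.0125, 0.330 after adjustment). With the 11 cancer clusters given equal weight, which removes the effect of unequal cluster shares, the doses were 0.885% ± 0.0065 (SD, n = 3) and 1.01% ± 0.033 (SD, n = 3), and the difference of differences was -0.11 (exact permutation p = 0.0625). Wild-type tumor 6 then lay among the tumors at 80%, at 0.883%, and the second-batch wild type held 0.868%, 0.959% and 0.884%. The doses did not overlap in 7 of the 11 clusters taken singly. No minimum of cells per cluster was set for these values. Cluster 27 had 6 cells in m.12436 60% tumor 1, and cluster 28 had 8 in wild-type tumor 4.

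Host cells, which do not carry the edit, also had lower mitochondrial shares at 80%. In macrophages they were 0.539%, 0.526% and 0.544% at 80% and 0.747%, 0.773% and 0.810% at 60%, with 0.655% in the third-batch wild type and 0.675% to 0.807% in the second. In CD4 T cells they were 0.568%, 0.452% and 0.572% at 80% and 0.962%, 0.969% and 0.913% at 60%, with 0.783% in the third-batch wild type and 0.756% to 1.01% in the second. In monocytes the means were 0.543% and 0.719%, in DC 0.414% and 0.580%, and in T cells 0.711% and 1.05%, all without overlap. The third-batch wild type held 0.672%, 0.550% and 0.851% in these 3 classes, and the second-batch wild type averaged 0.723%, 0.598% and 1.03%. In 9 of 11 classes all 3 tumors at 80% lay below wild-type tumor 6 of the same batch; in cancer cells this did not hold with clusters weighted equally.

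The ribosomal share of cancer cells was 26.2%, 25.2% and 24.96% at 80% and 21.0%, 21.6% and 21.8% at 60%. Wild type held 25.2% in the third batch, among the tumors at 80%, and 23.9%, 23.0% and 23.0% in the second, above all 3 tumors at 60%. The difference of differences was 2.10 percentage points (exact permutation p = 0.05). With the 11 cancer clusters given equal weight it was 0.94 percentage points (exact permutation p = 0.2875). Wild-type tumor 6, at 25.5%, then still lay among the tumors at 80%, and the doses did not overlap in any of the 11 clusters. CD8 T cells held 21.6%, 22.6% and 22.6% at 80% and 17.4%, 17.1% and 16.4% at 60%, with 20.7% in the third-batch wild type and 17.5%, 18.7% and 18.2% in the second. Their difference of differences was 2.75 percentage points (exact permutation p = 0.0125, 0.330 after adjustment). NK cells, fibroblasts, macrophages and neutrophils followed in the size of the difference against the spread, with means of 22.9% and 17.3%, 24.9% and 18.6%, 12.9% and 10.1%, and 8.45% and 5.48% at 80% and 60%. In the same order, wild type held 21.4%, 27.97%, 12.5% and 7.38% in the third batch and averaged 18.8%, 26.6%, 10.6% and 5.49% in the second. In 4 of 11 classes all 3 tumors at 80% lay above wild-type tumor 6, and in 1 class, fibroblasts, all 3 lay below it.

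**Figure D4:**
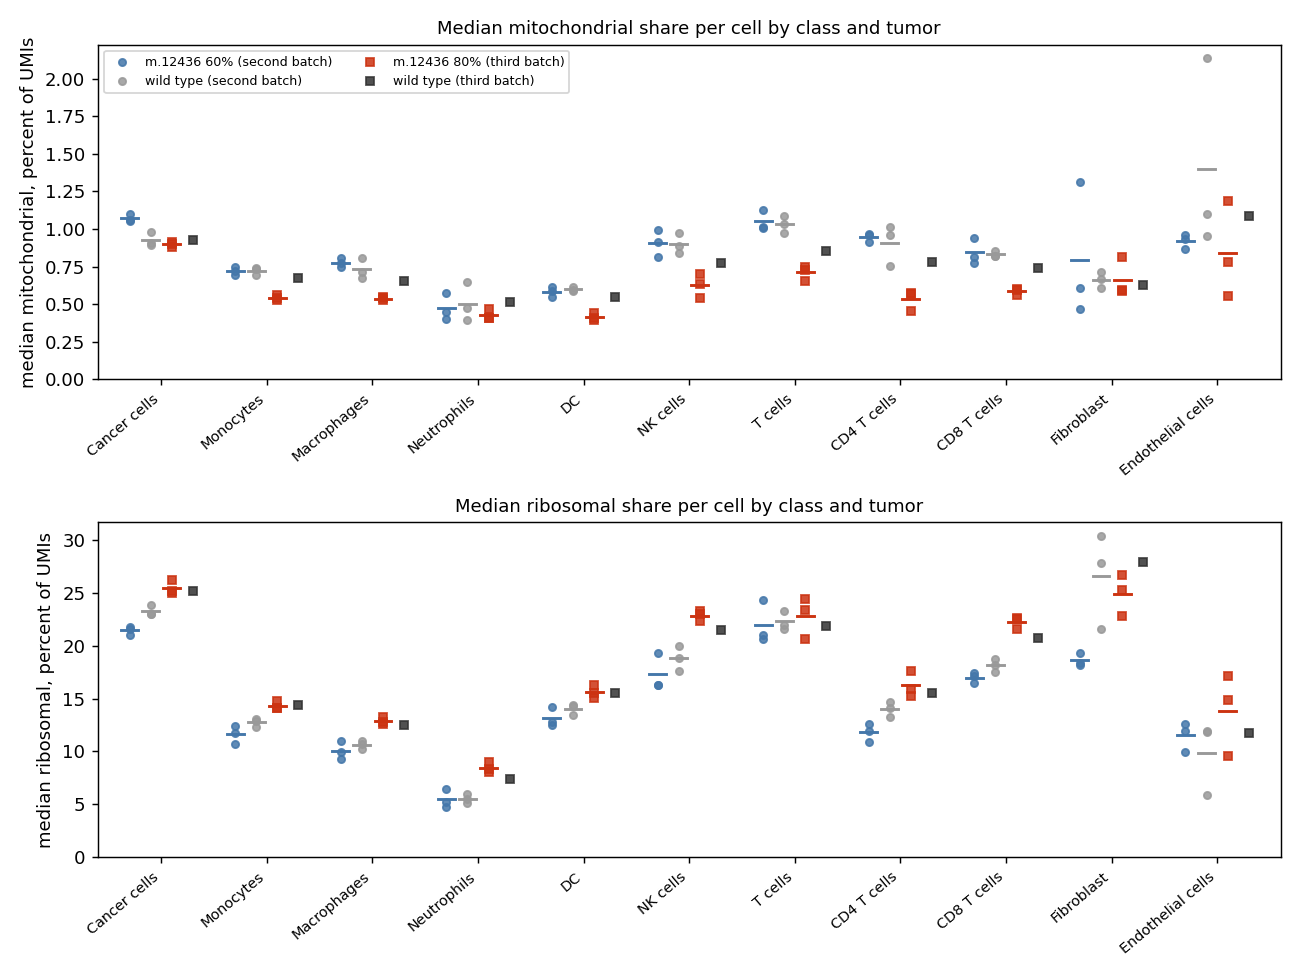
Median mitochondrial (top) and ribosomal (bottom) percent of UMIs per cell in 11 classes, with a point per tumor and a short line at the mean of each group of 3. In macrophages the 80% tumors lie at or below 0.544% mitochondrial UMIs and the 60% tumors at or above 0.747%; in cancer cells the third-batch wild type, at 25.2% ribosomal UMIs, lies among the 80% tumors.

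Within classes, depth differed between the doses as well. UMIs per cell were lower at 80% without overlap in 7 of 11 classes and genes per cell in 8 of 11, and for each of these measures all 3 tumors at 80% lay below wild-type tumor 6 in 9 classes. Among T cells the median was 1740, 1101 and 1413 UMIs at 80% and 3174, 2084 and 2351 at 60%. Cancer cells had 13839, 8538 and 9282 UMIs at 80% and 16013.5, 11930.5 and 13917 at 60%, which overlapped, and 18045 in wild-type tumor 6. With the 11 cancer clusters given equal weight, they had 9680 to 13594 at 80% and 14556 to 19536 at 60%, without overlap. Wild type then held 20141 in the third batch and 16932 to 20063 in the second (difference of differences, exact permutation p = 0.2375). In 8 of the 11 clusters taken singly, UMIs were lower at 80% without overlap. When cells were limited to the middle range of UMIs of their class (the UMI window), a setting added after seeing the data that left 9 classes, mitochondrial UMIs were lower without overlap in 7 of 9 and ribosomal UMIs higher in 8 of 9. Cancer cells then had mitochondrial shares of 0.834% ± 0.026 (SD, n = 3) at 80% and 1.07% ± 0.056 (SD, n = 3) at 60%, with 0.949% in the third-batch wild type and a mean of 0.941% in the second. Their ribosomal shares were 26.9% ± 0.27 (SD, n = 3) and 21.2% ± 0.51 (SD, n = 3), with 24.0% and a mean of 23.0% in wild type, so that wild-type tumor 6 lay below all 3 tumors at 80%. The differences of differences were -0.25 and 4.56 percentage points (exact permutation p = 0.0125 for both, 0.45 after adjustment).

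The share of cells called G2M was higher at 80% in cancer cells and lower in 5 host classes, without overlap. In cancer cells it was 20.7%, 17.6% and 19.8% at 80% and 16.3%, 15.1% and 16.6% at 60%, with 14.9% in the third-batch wild type and 13.2%, 11.7% and 18.9% in the second. Its difference of differences was 3.06 percentage points (exact permutation p = 0.45). Monocytes had 5.53%, 7.13% and 5.29% at 80% and 17.9%, 20.6% and 10.8% at 60%, against 10.3% in the third-batch wild type and 10.4%, 7.02% and 7.38% in the second. The difference of differences in monocytes was -12.5 percentage points (exact permutation p = 0.0125, 0.330 after adjustment). The means at 80% and 60% were 31.7% and 42.3% in CD8 T cells, 22.5% and 39.6% in CD4 T cells, 12.5% and 20.6% in DC and 22.1% and 33.4% in neutrophils. Wild type held 37.7%, 30.3%, 12.9% and 33.9% of these in the third batch and averaged 35.2%, 28.9%, 12.9% and 33.3% in the second. The median G2M score was lower at 80% without overlap in 8 classes, cancer cells among them (-0.095 and -0.051), so in cancer cells the median score was lower and the share called G2M higher. In the UMI window the median score was lower without overlap in 7 of 9 classes, but in cancer cells it overlapped (-0.069 and -0.059), while the share called G2M was higher without overlap. Phase calls alone are not read as division.

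The remaining measures separated fewer classes. UMIs of dissociation-related genes were lower at 80% without overlap in 4 classes, among them cancer cells, at 3.41% to 3.54% against 3.54% to 4.06%. The S score was lower in 5 classes and the share called S in 3, DC, monocytes and macrophages, while in cancer cells the shares called S overlapped (means of 20.5% and 19.8%). In the UMI window the cancer cells called S were 23.3%, 30.6% and 29.3% at 80% and 18.5%, 14.5% and 10.2% at 60%, without overlap, with 6.17% in wild-type tumor 6 and 9.21% to 13.3% in the second-batch wild type (difference of differences, exact permutation p = 0.237). The median doublet score of cancer cells was 0.00883, 0.00748 and 0.0127 at 80% and at most 0.000927 at 60%. Wild-type tumor 6, at 0.000503, lay with the tumors at 60%, and the second-batch wild type ranged from 0.000307 to 0.00584. The deposited table holds no cell called a doublet, and the part of such mixtures in the cluster shares was not tested. The epithelial score overlapped between the doses in all 11 classes, but in the UMI window it was 7.56, 8.64 and 7.73 in cancer cells at 80% and 5.37, 4.48 and 5.04 at 60%. Wild type then scored 3.85 in the third batch and 5.06 to 6.54 in the second (difference of differences 5.17, exact permutation p = 0.025, 0.45 after adjustment).

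Ploidy calls, which the authors made with T and NK cells as the diploid reference, also differed outside the cancer class. Of fibroblasts, the matrix-forming cells of connective tissue, 63.6%, 56.9% and 83.5% were called aneuploid at 80% and 8.60%, 7.96% and 19.8% at 60%. Wild type lay the other way, with 13.5% of 178 fibroblasts in the third batch and 63.8%, 55.3% and 51.6% in the second. The difference of differences was 99.3 percentage points (exact permutation p = 0.0125, 0.330 after adjustment). Over the tumors of both batches, 46.1% of the larger fibroblast cluster, 15, and 32.3% of cluster 23 were called aneuploid. Cluster 15 had a median epithelial score of 4.09, against 0 in cluster 23 and 2.83 to 10.3 in the cancer clusters. Whether the fibroblast class held cancer cells was not tested. Of endothelial cells, which line vessels, 32.0%, 52.0% and 62.9% were called aneuploid at 80%, from 25, 25 and 35 cells, and at most 3.57% at 60%. Wild type held 5.26% of 19 cells in the third batch and 73.2%, 0% and 1.89% in the second, from 56, 12 and 53 cells. With aneuploid cells outside the cancer class left out, a setting added after seeing the data, the 7 classes called between the doses were joined by endothelial cells, and the 11 clusters by cluster 31, which is that class.

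**Figure D5:**
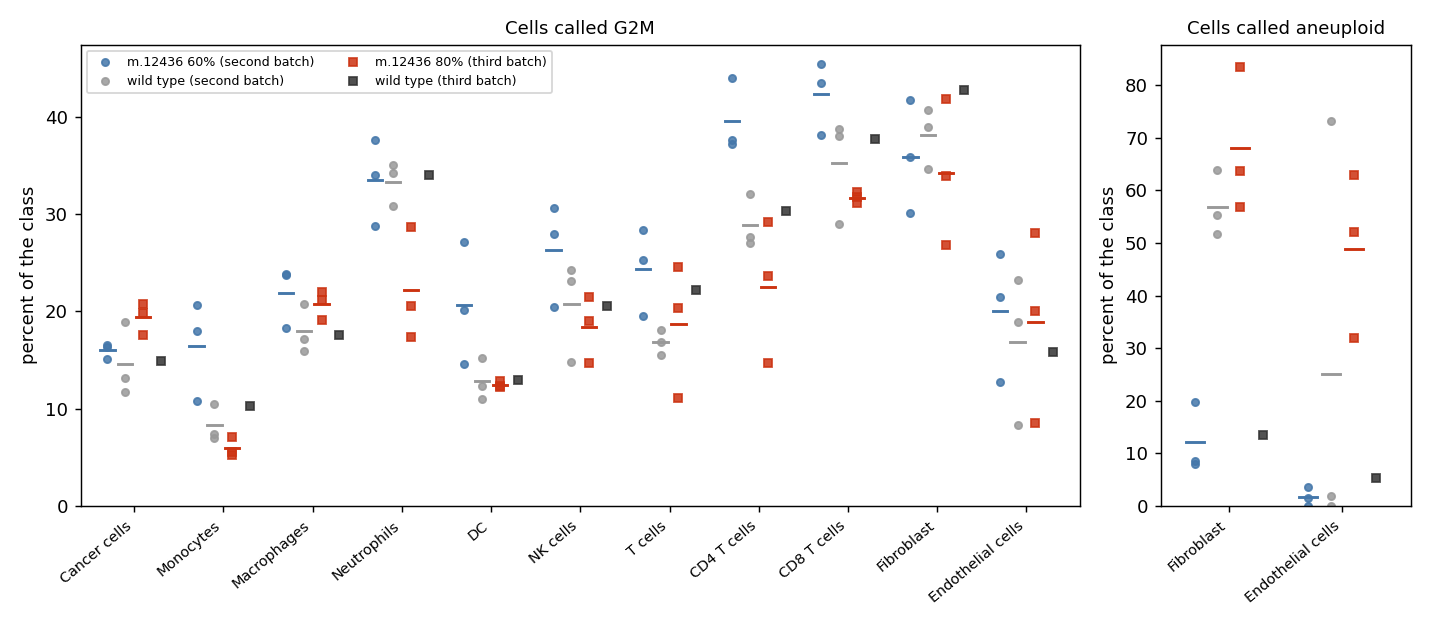
Percent of cells called G2M in 11 classes and percent called aneuploid in fibroblasts and endothelial cells, with a point per tumor and a short line at the mean of each group of 3. Monocytes called G2M lie at or below 7.13% in the 80% tumors and at or above 10.8% in the 60% tumors; fibroblast calls separate the doses and, in the opposite direction, the wild types of the batches.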

How the data were processed

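Live cells sorted from digested tumors were profiled with the 10x Chromium 3′ kit, and the authors mapped reads to GRCm39 with Cell Ranger and handled them in Seurat. The UMI and gene counts of each cell were taken from the deposited table, with no scaling. Mitochondrial, ribosomal and dissociation-related UMIs were deposited as percent of the UMIs in a cell, and the gene lists of the last 2 are not given in the sources used here. The doublet, S, G2M and epithelial scores were computed by the authors, who also gave phases, ploidy calls (CopyKAT), clusters after Harmony correction between batches, and class names. The table holds 163343 cells, the number the methods give after the filters on cells. Each cell had at least 501 genes, at most 36985 UMIs and at most 5.00% mitochondrial UMIs. No gene matrix was used here, so cells could not be thinned to equal depth.

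Members, lists and tests were chosen with earlier results of these data known. Cell numbers were fitted with edgeR 4.0.16 (R 4.3.3) over all 16 tumors in 6 groups of genotype within batch, with the tumor's cells, or those of the class, as the total. The lone third-batch wild type was assumed to vary like the other groups. Adjustment was by Benjamini-Hochberg, with a threshold of 0.05. Measures were tested by two-sided exact permutation, over 20 splits of 3 against 3 tumors or 80 arrangements within batches. Clusters past the threshold were named, up to 12 of smallest p, with the 5 of smallest p in the difference of differences, and for measures the cancer cells and up to 5 classes without overlap. Each class share had an exact 95% binomial interval (Clopper-Pearson) of 1.19 percentage points or less on a side, for counting error only. The fits were tested on simulated data. Alternatives were TMM scaling, DESeq2 1.42.0, non-malignant cells, at least 1000 genes, at least 10 or 50 cells, the 6 m.12436 tumors alone, a replicate block, each tumor left out, means over cells and aneuploid cancer cells alone. Added after seeing the data were the UMI window (25th to 75th percentile of a class) and the removal of aneuploid cells outside the cancer class. Python 3.11.15, numpy 2.4.6, pandas 2.3.3, scipy 1.17.1 and matplotlib 3.10.9 were used.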

Additional observations from a re-analysis of the deposited data

Results flagged for a closer look

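Each result here had an unadjusted p under 0.05 in the difference of differences from same-batch wild type, and none passed after adjustment. By edgeR, with an unadjusted p under 0.05, these were the log2 differences of differences of CD4 T cells (-1.92) and of their only cluster, 20 (-1.92), of monocyte cluster 6 (-1.72) and of cancer cluster 9 (2.56). Within their classes they were those of cancer cluster 2 (-1.31) and macrophage cluster 4 (-0.83).

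Among the 132 comparisons of measures, 5 reached the smallest exact permutation p, 0.0125. That test asks whether genotype had no effect in either batch, so its p does not show that the effects differed between the doses. They were the mitochondrial share of cancer cells (-0.176 percentage points), the ribosomal share of CD8 T cells (2.75 percentage points), the S score of CD8 T cells (-0.066), the share of monocytes called G2M (-12.5 percentage points) and the share of fibroblasts called aneuploid (99.3 percentage points). The CD8 T cell S score was 0.0441, 0.0171 and 0.0291 at 80%, 0.0809, 0.0505 and 0.0481 at 60%, 0.0605 in wild-type tumor 6 and 0.0084, 0.0242 and 0.0399 in the second-batch wild type. It is the only one of the 5 whose difference between doses reversed under an alternative setting.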

How the results depend on the processing

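Between the doses, the number of called classes went from 7 to 3 among non-malignant cells (14 classes tested). It was 3 to 7 with a tumor left out, with 3 without m.12436 80% tumor 3. It was 4 without m.12436 80% tumor 1 or m.12436 60% tumor 2 or 3. Such counts can include classes or clusters not called at first, such as neutrophils without m.12436 80% tumor 1. The number of called clusters went from 11 to 5 among non-malignant cells (28 clusters tested). With a tumor left out it was 5 to 13, with 5 without m.12436 80% tumor 1 or 3. It was 6 without m.12436 60% tumor 1 or 2 and 7 without m.12436 80% tumor 2. The number of calls within classes went from 3 to 6 in the m.12436 tumors alone. With a tumor left out it was 1 to 5, with 1 without m.12436 60% tumor 2 or m.12436 80% tumor 3. It was 5 without m.12436 60% tumor 3. With the replicate block the calls were 8, 10 and 5. Deviations of same-numbered tumors had correlations of -0.40, -0.19 and -0.10 over 39 clusters, against -0.39 to 0.44 for differently numbered tumors. So few values cannot decide whether the numbers pair the tumors. In the difference of differences the counts stayed at 0, except for 0 to 1 within classes, where cancer cluster 2 passed without wild-type tumor 4 (log2 -1.89, edgeR adjusted p = 0.0238). Wild-type tumor 6 cannot be left out of that comparison. Measures without overlap numbered 64 to 78 with a tumor left out. These were out of 132, or of 144 without m.12436 60% tumor 2 or m.12436 80% tumor 3. The count stayed at 64 without any one wild-type tumor, as wild type does not enter the overlap. With fewer m.12436 tumors the doses separate more easily, so the higher counts do not show stability. Measures without overlap were 51 of 108 in the UMI window, 51 of 96 with at least 50 cells and 58 to 63 of 132 under the other settings.

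Reversed differences were the DC log2 fold (0.0815 with DESeq2), and, with at least 1000 genes, UMIs (283.5) and genes (50.5) of CD4 T cells, UMIs (89) and genes (28.5) of T cells and the S score of CD8 T cells (0.00316). In the UMI window they were the ribosomal share of fibroblasts (-1.22), the S (0.0915) and G2M (0.0522) scores of CD8 T cells and the doublet scores of DC (0.000884) and monocytes (0.00438), and with means over cells the G2M score of macrophages (0.00466). The cause was not tested. Of 363 alternative log2 folds of called shares, 71 lost the call with their direction kept and 1 (DC with DESeq2) reversed, and of 939 alternative values of measures, 46 moved by more than the spread. TMM scaling and non-malignant cells were not applied within classes, and aneuploid cancer cells alone give no share called aneuploid.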

Other observations

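The smaller of the 2 neutrophil clusters, 35, singled out after its values were seen, was 5.47%, 40.2% and 19.2% of neutrophils at 80%, 4.97%, 7.60% and 3.54% at 60% and 0.309% to 2.78% in the 4 wild-type tumors. The highest shares stood in the tumors with the fewest neutrophils, and the cluster did not pass between the doses (edgeR adjusted p = 0.318). Over these 10 tumors its cells had a median doublet score of 0.0747 and a median of 2932 UMIs, against 6.34e-05 and 1350 in the other neutrophil cluster, and the part of mixed droplets in its share was not tested.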
